A study of Citrus trifoliata with 6 samples.

Results

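The aquaporin genes of Poncirus trifoliata roots were followed gene by gene and by subfamily. A gene was taken as a member when the description of its best protein match contained aquaporin, tonoplast intrinsic, plasma membrane intrinsic, NOD26, nodulin 26 or major intrinsic protein, and 25 of the 22589 genes with a read in any library met this rule. By the same descriptions 10 members were PIPs, 9 were TIPs, 4 were NIPs and 1 was a SIP. The remaining member, Cs1g11140, was described only as an aquaporin, and its deposited KEGG class was NIP. For the other 24 members the KEGG class and the description gave the same subfamily, so the deposited annotation bore out the label. P. trifoliata is a citrus relative used as a rootstock, and the study asked which of its root genes respond to the arbuscular mycorrhizal fungus Glomus versiforme. The Gv group was lateral roots of plants that had received about 3000 spores per pot, and the control group was lateral roots of plants without inoculum. All plants received 20 μM phosphorus and were sampled at 3 months post-inoculation. Each group had 3 biological replicates, and each replicate pooled at least 9 plants. Because whole roots were pooled, a lower number of cells of a type and less RNA per cell cannot be told apart.

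Aquaporins are membrane channels that let water and some small uncharged solutes cross a membrane down their gradient. The plasma membrane intrinsic proteins (PIPs) are the main water channels of the cell surface, and those of the PIP1 type generally need a PIP2 partner to reach it. The tonoplast intrinsic proteins (TIPs) lie mostly in the vacuolar membrane and carry water, and several also carry urea or ammonia. The NOD26-like intrinsic proteins (NIPs), named after a soybean nodule protein, are poor water channels as a rule and carry solutes such as glycerol, boric acid or silicic acid, and the small basic intrinsic proteins (SIPs) are found in the endoplasmic reticulum.

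Reads counted on genes totalled 4.34 M to 4.63 M (M, 1000000 reads) per Gv library and 4.51 M to 4.71 M per control library, and each library is called by its replicate number. The libraries with replicate number 3 stood apart from the others in both groups. Across the 16281 genes that passed a filter on low counts, the deviation of Gv replicate 3 from its group mean correlated with that of control replicate 3 with an r of 0.613. With those of control replicates 1 and 2 the r values were -0.404 and -0.580. Deviations from a group mean cancel out within the group, so the negative values are not separate from the positive one. These correlations are across genes, which are not independent replicates. The aquaporin genes took 0.783%, 0.794% and 0.383% of the reads in Gv libraries 1, 2 and 3, and 0.795%, 0.603% and 0.293% in control libraries 1, 2 and 3. Results are therefore given with and without number 3 where they depend on it. What the shared number stands for was not given in the sources used here.

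The aquaporins included some of the most abundant transcripts of the root. RPKM, the reads on a gene scaled by gene length and by library total, was used to compare levels between genes. Over the 6 libraries the PIP gene Cs8g16640 had a mean of 727 RPKM, the 17th highest of the 22589 genes, and the TIP gene orange1.1t03005 had a mean of 655 RPKM, the 19th highest. Next came the TIP gene Cs5g08710 with 451 RPKM, rank 34 of all genes, and the PIP gene Cs7g31410 with 412 RPKM, rank 46. This order rested on the libraries of numbers 1 and 2. In the number 3 libraries alone, a split chosen after the values were seen, orange1.1t03005 came first with a mean of 614 RPKM, rank 20, and Cs8g16640 had 264 RPKM, rank 88. In all, 5 PIPs and 6 TIPs made up the 11 highest members, with means of at least 79.9 RPKM, at or above percentile 96.9 of all genes. The PIPs Cs6g11690 and Cs6g11700, the 3 tested NIPs, the SIP and Cs1g11140 had means between 0.80 and 37.2 RPKM. At the low end, 7 members did not reach the filter on low counts and were not tested, and none of these exceeded 13 reads or 4.28 RPKM in any library. They were the PIPs Cs6g11660, Cs6g11670 and Cs8g08820, the TIPs Cs5g17210, Cs5g25340 and Cs9g14770, and the NIP Cs2g16610, which had 1 read in all, in Gv replicate 2. The other 18 members passed the filter. Gv was tested against control by edgeR on the counts of all genes that passed, and a gene is termed called when its adjusted p is below 0.05 and its log2 fold change is 1 or more in size. A second edgeR fit took the replicate number as a block, so that libraries of the same number are compared with each other.

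**Figure D1:**
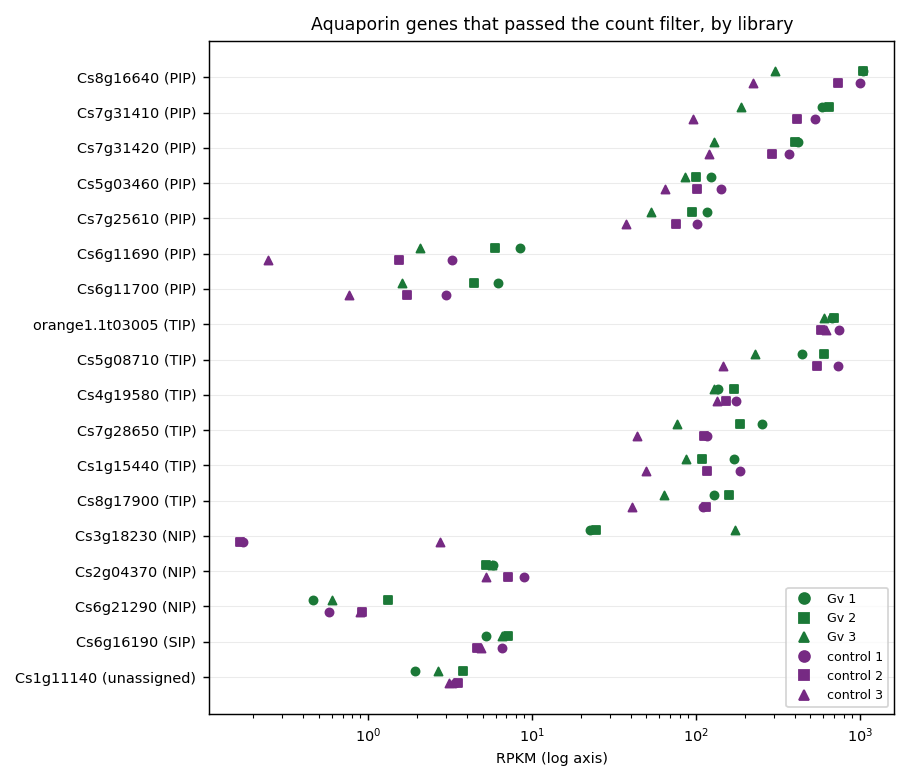
RPKM (log axis) of the 18 aquaporin genes that passed the filter on low counts, in each of the 6 libraries. Green points above the line are Gv libraries, purple points below it are control libraries, and triangles are replicate number 3. For 11 of the 18 genes both triangles lie to the left of the other 4 points, and Cs3g18230 has all Gv points to the right of all control points.

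Among the PIPs, Cs8g16640, described as PIP2.1, was the highest in every library. It had 1047, 1050 and 305 RPKM in Gv libraries 1, 2 and 3, and 1004, 733 and 222 RPKM in control libraries 1, 2 and 3. Cs7g31410, described as plasma membrane intrinsic protein 1-1, had 590, 651 and 189 RPKM in the Gv libraries and 533, 411 and 96.6 RPKM in the control libraries. Cs7g31420, described as PIP1;11, had 418, 401 and 129 RPKM in the Gv libraries and 369, 290 and 120 RPKM in the control libraries. For each of these genes the groups overlapped, since replicate 3 of the Gv group lay below replicates 1 and 2 of the control group. Cs5g03460, described as PIP1, averaged 103 ± 19.0 RPKM in Gv roots and 103 ± 39.4 RPKM in control roots (SD, n = 3 each). Cs7g25610, described as a plasma membrane intrinsic protein, averaged 88.2 ± 32.0 RPKM in Gv roots and 71.7 ± 32.5 RPKM in control roots (SD, n = 3 each). These 5 genes had log2 fold changes of Gv over control between -0.01 and 0.44. The 3 highest PIPs together made up 88.1% of the summed mean RPKM of the subfamily.

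Of the low PIPs, 4 had neighbouring identifiers. Cs6g11660, Cs6g11670 and Cs6g11700 were all described as PIP2.2 and Cs6g11690 as a plasma membrane intrinsic protein. PIP2 genes encode water channels of the plasma membrane. Because only reads with a unique alignment were counted, reads shared between such close copies could be lost or placed on the wrong copy, so their levels are uncertain. The same limit may hold for the abundant PIPs Cs7g31410 and Cs7g31420, which also have neighbouring identifiers and similar descriptions. Cs6g11690 had 66, 49 and 16 reads in Gv libraries 1, 2 and 3 and 26, 13 and 2 reads in control libraries 1, 2 and 3. Cs6g11700 had 47, 35 and 12 reads in the Gv libraries and 23, 14 and 6 reads in the control libraries. Each Gv library thus had more reads than the control library of the same number, although the groups overlapped. The RPKM ratio of Gv over control within numbers 1, 2 and 3 was 2.61, 3.84 and 8.40 for Cs6g11690 and 2.10, 2.55 and 2.10 for Cs6g11700. Their log2 fold changes were 1.69 ± 0.81 for Cs6g11690 and 1.15 ± 0.64 for Cs6g11700 (SE derived from the edgeR quasi-likelihood F statistic), with an adjusted p of 0.9999 for both. In the fit with a block for the replicate number the edgeR adjusted p was 0.121 for Cs6g11690 and 0.205 for Cs6g11700, so neither was called.

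Among the TIPs, orange1.1t03005, described as TIP1-1, was the highest TIP in all 6 libraries. It had 675, 699 and 601 RPKM in Gv libraries 1, 2 and 3 and 750, 577 and 626 RPKM in control libraries 1, 2 and 3. Its log2 fold change was 0.01 ± 0.20, with a 95% interval of the edgeR fit from -0.47 to 0.48, which lies inside a 2-fold change in either direction. The deposited gene ontology terms list urea transport for it. Cs5g08710, described as TIP2-2, with methylammonium transport among its deposited terms, had 441, 605 and 229 RPKM in the Gv libraries and 738, 548 and 146 RPKM in the control libraries. The groups overlapped, and its log2 fold change was -0.19 ± 0.62 without the block and 0.00 ± 0.26 with it.

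Cs7g28650, described as a tonoplast intrinsic protein and carrying deposited terms for water and urea transport, had the largest log2 fold change of the TIPs. It had 1511, 1166 and 453 reads in Gv libraries 1, 2 and 3, which is 255, 187 and 77.3 RPKM. In control replicates 1, 2 and 3 it had 713, 717 and 268 reads, which is 117, 113 and 43.5 RPKM. The groups overlapped because of Gv replicate 3, while within each number the Gv library was higher, by 2.18, 1.66 and 1.78 times for numbers 1, 2 and 3. The log2 fold change was 0.91 ± 0.54 without the block and 0.88 ± 0.14 with it, and the edgeR adjusted p was 0.9999 without the block and 0.0725 with it. The gene was not called in either fit. The other tested TIPs were Cs4g19580, Cs1g15440 and Cs8g17900, all described as tonoplast intrinsic proteins. Cs4g19580 averaged 145 ± 22.4 RPKM in Gv roots and 154 ± 20.3 RPKM in control roots, and Cs1g15440 averaged 122 ± 43.4 RPKM in Gv roots and 117 ± 68.2 RPKM in control roots (SD, n = 3 each). Cs8g17900 averaged 118 ± 49.2 RPKM in Gv roots and 88.8 ± 41.7 RPKM in control roots (SD, n = 3 each). The largest log2 fold change among these 3 genes was 0.39 ± 0.49 for Cs8g17900.

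The NIP gene Cs3g18230 differed from all other members. Its description was an aquaporin of the NIP subfamily, with no gene ontology term, so the solute it carries is not annotated. It is the member for which the study designed quantitative RT-PCR primers, and they are shown because they mark the transcript that carries the largest difference in the family. The study chose the gene from these libraries, so its choice is not independent of the values here. The paper reports that every gene it selected for quantitative RT-PCR was higher in colonized roots, in samples independent of these libraries. The RT-PCR values of this gene are not given here. The primers have 24 and 19 bases, and no bases are in capitals because no part was singled out.
Cs3g18230 forward: agaagctaaggctcattgcctaaa
Cs3g18230 reverse: gaaatgagacggcgaagca

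Cs3g18230 had 126, 146 and 959 reads in Gv libraries 1, 2 and 3, against 1, 1 and 16 reads in control libraries 1, 2 and 3. This corresponds to 22.5, 24.7 and 173 RPKM in the Gv libraries and 0.17, 0.17 and 2.75 RPKM in the control libraries. All 3 Gv libraries were above all 3 control libraries, and within each group replicate 3 was the highest. The ratio of Gv over control, scaled by the reads on genes, was 63.0 for number 3 (95% exact interval 38.6 to 111). For numbers 1 and 2 it was 129 and 149, with wide intervals of 22.8 to 5149 and 26.3 to 5912, because each control library had a single read. Over the summed reads, 1231 in Gv libraries and 18 in control libraries, the ratio was 70.5 (44.4 to 119). These intervals cover counting error only.

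The call on Cs3g18230 depended on how the spread between libraries was handled. Without a block the log2 fold change was 6.12 ± 1.29, with an unadjusted p of 0.0025 and an adjusted p of 0.377 in the edgeR quasi-likelihood test, which did not pass the threshold of 0.05. In the fit with a block for the replicate number the log2 fold change was 6.20 ± 0.22 and the edgeR adjusted p was 0.0014. This SE was derived from the F statistic of the test and understates the counting error of the 18 control reads. With the block the gene passed in all 6 edgeR fits that left out 1 library, with adjusted p values between 0.0011 and 0.0111. In each such fit the partner of the same number no longer entered the comparison, so the 6 fits are not separate checks. DESeq2 without a block gave a log2 fold change of 6.18 ± 1.45 and an adjusted p of 0.0023. Without the block, leaving out 1 library in turn gave log2 fold changes between 4.51 (Gv replicate 3 left out) and 8.54 (control replicate 3 left out), and none of these 6 edgeR fits called it, with adjusted p values of 0.198 or more.

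Cs3g18230 was high in the library in which genes taken as markers of arbuscule-containing cells were also high. The 5 marker genes, which are the 2 orthologs of the phosphate transporter PT4 and the genes for HA1, PDR1 and Exo70I, summed to 179, 198 and 1185 RPKM in Gv libraries 1, 2 and 3, and to 0.41, 0.13 and 0 RPKM in control libraries 1, 2 and 3. With the block all 5 were called by edgeR as higher in Gv roots, without it 0 were, and 2 of the 5 had 0 reads in all control libraries. The study named these 5 genes as raised in these same libraries, so their calls are not independent evidence. The paper calls PT4 of Medicago truncatula an arbuscule-specific marker and reports arbuscule-enriched promoter activity for Exo70I. It links HA1 to nutrient uptake and arbuscule development, and PDR1 to strigolactone transport, so not every gene of the list is shown there to mark arbuscule-containing cells. In Gv replicate 3 the NIP gene was 7.33 times the mean of Gv replicates 1 and 2. In control replicate 3 the 16 reads of the NIP gene stood beside a marker sum of 0 RPKM. The part of arbuscule-containing cells in the NIP result was not tested.

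The other NIPs showed no such difference. Cs2g04370, described as NIP1.1, had 55, 53 and 54 reads in Gv libraries 1, 2 and 3 and 88, 73 and 52 reads in control libraries 1, 2 and 3. It had the lowest log2 fold change of the tested members, -0.36 ± 0.24, with a 95% interval of the edgeR fit from -0.95 to 0.22 and an adjusted p of 0.9999. Cs6g21290, described as similar to NIP2-1, with inorganic anion transport among its deposited terms, had 7, 21 and 9 reads in the Gv libraries and 9, 15 and 14 reads in the control libraries. At this depth its 95% interval, from -1.1 to 1.1, does not exclude a 2-fold change in either direction.

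**Figure D2:**
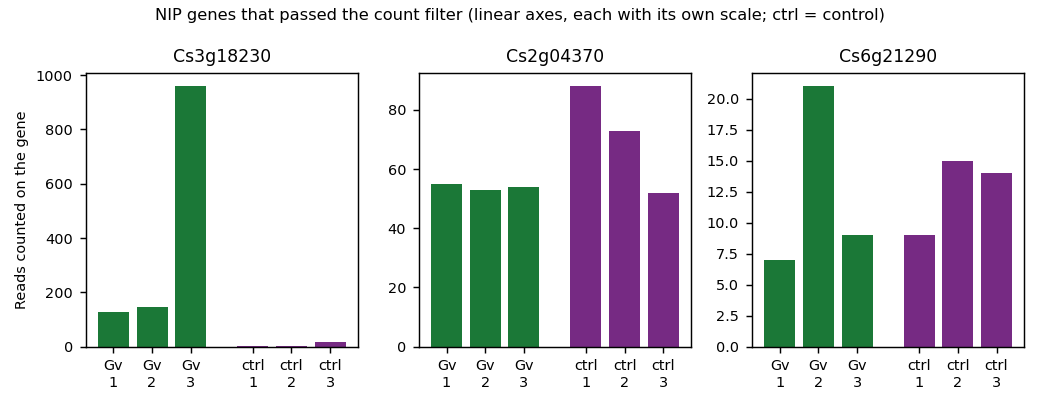
Reads counted on the 3 NIP genes that passed the filter, in the Gv libraries (green, left) and the control libraries (purple, right), on linear axes that differ between genes. Cs3g18230 has 126 to 959 reads in Gv libraries against 1 to 16 in control libraries, while Cs2g04370 and Cs6g21290 overlap between the groups.

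The SIP gene Cs6g16190 averaged 6.30 ± 0.97 RPKM in Gv roots and 5.37 ± 1.08 RPKM in control roots (SD, n = 3 each), and its log2 fold change was 0.22 ± 0.20. Cs1g11140, whose deposited terms include water and urea transport and a response to boron-containing substances, averaged 2.81 ± 0.94 RPKM in Gv roots and 3.35 ± 0.23 RPKM in control roots (SD, n = 3 each). Its log2 fold change was -0.27 ± 0.27. Both genes overlapped between the groups.

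Counted over the family, the test without the block called 0 of the 18 tested members, and over all 16281 genes tested it called 0%. At an unadjusted p under 0.05 it had 1 member, Cs3g18230, and 744 of all genes. With the replicate block edgeR called 1 of the 18 members as higher in Gv roots, against 0.958% of all genes tested, and 0 as lower. DESeq2 called 1 of 18, against 1.15% of all genes. The NOISeq criterion called 1 of all 25, against 1.35% of all genes. In each case the called member was Cs3g18230. Cs3g18230 was also the only gene of the 18 whose 3 Gv libraries were all above the 3 control libraries in RPKM, against 5.35% of all genes tested, a share near that of the background, and 0 of 18 lay below, against 3.26%. Each of these counts rests on the same single gene. Of the untested members, the TIP Cs5g25340 had 4, 7 and 3 reads in Gv libraries 1, 2 and 3 and 1, 3 and 2 reads in control libraries 1, 2 and 3.

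The median log2 fold change of the 18 tested members was 0.24, beside -0.01 over all genes tested. It was 0.29 for the 7 tested PIPs, 0.03 for the 6 TIPs and -0.02 for the 3 NIPs. The log2 fold change was above 0 for 12 of the 18 members without the block and for 14 of 18 with it, including 6 and 7 of the 7 PIPs. With the block, 7 of the 18 members had an unadjusted p under 0.05, as did 1465 of the 16281 genes, and of these 7 only Cs3g18230 passed after adjustment. The other 6 were the PIPs Cs6g11690, Cs6g11700, Cs7g25610 and Cs7g31410 and the TIPs Cs7g28650 and Cs8g17900. Members within a subfamily are related in sequence and share libraries, so they are not independent of each other.

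**Figure D3:**
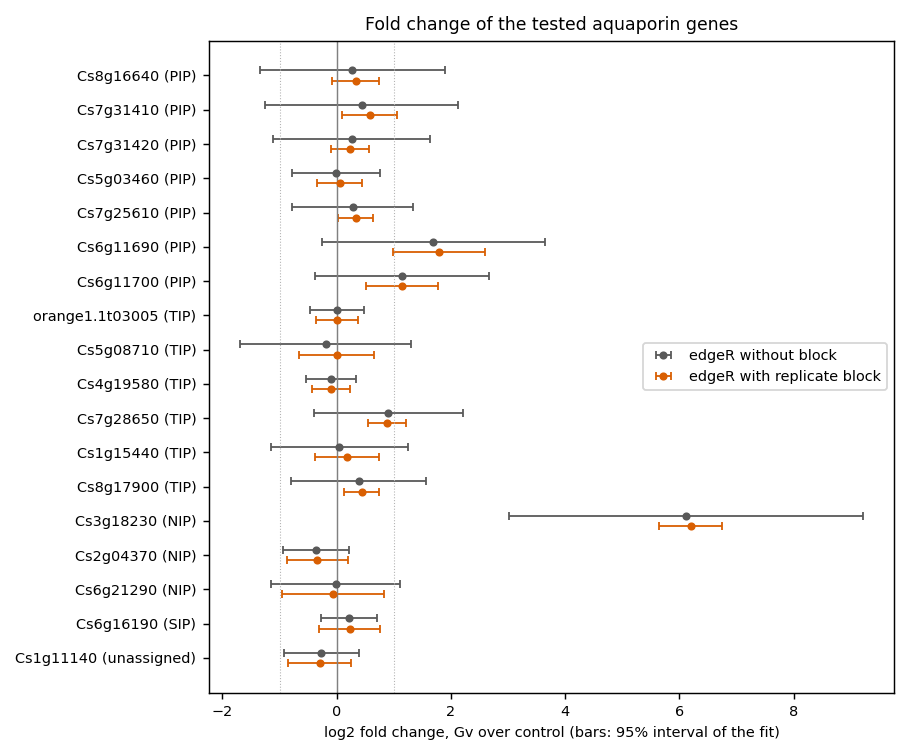
Log2 fold change of Gv over control with its 95% interval for the 18 tested aquaporin genes, in edgeR without a block (grey, upper) and with the replicate number as a block (orange, lower). Dotted lines mark a 2-fold change. The intervals of Cs3g18230 lie above the 2-fold line in both fits, and the block narrows the intervals of most PIPs and TIPs. For Cs3g18230 the interval with the block understates the counting error.

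Summed over the subfamily, PIP transcripts had 2314, 2311 and 767 RPKM in Gv libraries 1, 2 and 3 and 2161, 1617 and 544 RPKM in control libraries 1, 2 and 3. The means were 1797 ± 893 RPKM in Gv roots and 1440 ± 823 RPKM in control roots (SD, n = 3 each), a log2 ratio of 0.32, which was -0.07 when control replicate 3 was left out and 0.73 when control replicate 1 was. TIP transcripts had 1808, 1932 and 1188 RPKM in the Gv libraries and 2078, 1621 and 1042 RPKM in the control libraries, with means of 1643 ± 398 RPKM in Gv roots and 1581 ± 519 RPKM in control roots and a log2 ratio of 0.06, between -0.17 and 0.30 when 1 library was left out. Both subfamilies overlapped between the groups, and the difference in means was smaller than the SD within either group. Within numbers 1, 2 and 3 the Gv library had 1.07, 1.43 and 1.41 times the PIP sum of the control library and 0.870, 1.19 and 1.14 times its TIP sum. The mean of the log2 ratios within numbers was 0.370 for the PIP sum and 0.081 for the TIP sum. For numbers 1 and 2 alone the log2 ratio was 0.292 for the PIP sum and 0.016 for the TIP sum. Leaving out control replicate 3 alone, by contrast, keeps number 3 in the Gv group only.

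NIP transcripts had 28.7, 31.5 and 179 RPKM in the Gv libraries and 9.75, 8.24 and 8.90 RPKM in the control libraries, so the groups did not overlap. The means were 79.9 ± 86.2 RPKM in Gv roots and 8.96 ± 0.76 RPKM in control roots, a ratio of 8.91 and a log2 ratio of 3.16. This sum turned on Cs3g18230, which made up 78.3%, 78.6% and 96.5% of it in Gv libraries 1, 2 and 3 and 1.78%, 2.02% and 30.9% in control libraries 1, 2 and 3. Without Cs3g18230 the NIP means were 6.44 ± 0.27 RPKM in Gv roots and 7.93 ± 1.72 RPKM in control roots, a log2 ratio of -0.30. When Gv replicate 3 was left out, the NIP sum had a log2 ratio of 1.75. The NIP share of the RPKM of the 25 members was 0.690%, 0.735% and 8.37% in Gv libraries 1, 2 and 3 and 0.229%, 0.253% and 0.555% in control libraries 1, 2 and 3. The SIP sum is the single gene given above, with a log2 ratio of 0.23.

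**Figure D4:**
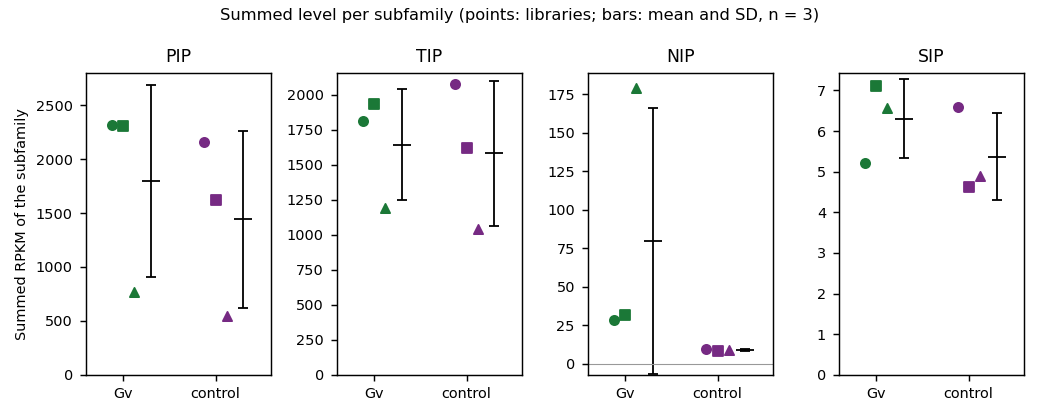
Summed RPKM of each subfamily in the Gv libraries (green, left) and the control libraries (purple, right), with the mean and SD of 3 libraries beside them and triangles for replicate number 3. PIP and TIP sums overlap between groups and are lowest in both number 3 libraries, while the NIP sums of 28.7 to 179 RPKM in Gv libraries lie above the 8.24 to 9.75 RPKM of control libraries.

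The larger difference in PIPs and TIPs was between replicate numbers. The PIP sum in replicate 3 was 0.331 times the mean of replicates 1 and 2 in the Gv group and 0.288 times it in the control group, and the TIP sum was 0.635 times in the Gv group and 0.563 times in the control group. In an edgeR test of the replicate number with the group in the model, 7 of the 18 tested members were called at an adjusted p under 0.05, against 4.69% of all genes. Of these, 6 were lowest in number 3, against 2.56% of all genes. These were the PIPs Cs8g16640, Cs7g31410, Cs7g31420 and Cs7g25610 and the TIPs Cs7g28650 and Cs8g17900, with edgeR adjusted p values between 0.0364 and 0.0393 and log2 changes of number 3 over number 1 between -2.09 and -1.27. The remaining call was Cs3g18230, which was highest in number 3, with a log2 change of 2.97 and an edgeR adjusted p of 0.0337. Both number 3 libraries lay below the other 4 libraries for 11 of the 18 members, against 20.1% of all genes tested. These 11 comprised 6 of the 7 PIPs and 5 of the 6 TIPs, and no tested NIP or SIP. The calls depended on the libraries. Each refit without a library left the replicate number of that library with a single library. The share of all genes called in these refits is not given, so the counts are not read as a result about aquaporins. When a single Gv library was left out, the test called 0 members (number 1), 3 members (number 2) or 10 members (number 3). When a single control library was left out, it called 1 member (number 1), 1 member (number 2) or 7 members (number 3).

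Across the 18 members the median log2 change of number 3 over number 1 was -1.30, beside 0.00 over all genes tested. It was -1.98 for the PIPs, -1.36 for the TIPs and 0.47 for the NIPs. The PIP values ranged between -2.49 and -0.87, so all 7 tested PIPs were lower in number 3 than in number 1. Within the TIPs the difference was uneven. In replicate 3 the level of Cs5g08710 was 0.438 times the mean of replicates 1 and 2 in the Gv group and 0.228 times in the control group. For orange1.1t03005 it was 0.875 times in the Gv group and 0.944 times in the control group. The TIP1-1 gene therefore took a larger share of the TIP sum in number 3, 50.6% in Gv replicate 3 and 60.1% in control replicate 3, against 35.6% to 37.3% in the other 4 libraries.

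**Figure D5:**
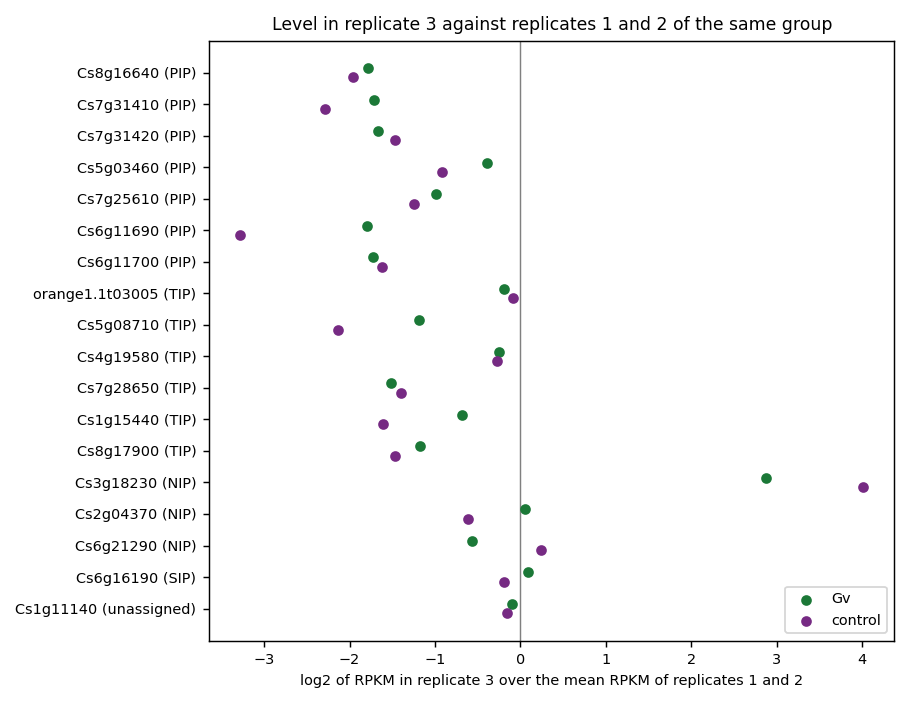
Log2 of the RPKM in replicate 3 over the mean RPKM of replicates 1 and 2 of the same group, for the 18 tested aquaporin genes (green, Gv, above; purple, control, below). All PIPs lie left of 0 in both groups, orange1.1t03005 and Cs4g19580 lie near 0, and Cs3g18230 lies far to the right.

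Lists of other root genes showed where this difference was shared. The 4 dehydrin genes, which encode proteins that accumulate in drying cells, summed to 1443, 1068 and 613 RPKM in Gv libraries 1, 2 and 3 and to 1121, 1254 and 487 RPKM in control libraries 1, 2 and 3. They were lower in number 3 in both groups, with a median log2 change of number 3 over number 1 of -1.16, although 0 of the 4 were called by replicate number. The highest dehydrin, Cs3g26970, had 1181, 909 and 486 RPKM in the Gv libraries and 890, 1013 and 366 RPKM in the control libraries. The 28 genes for mitotic cyclins and histones, which mark dividing cells, summed to between 1119 and 1195 RPKM in the Gv libraries and between 1215 and 1289 RPKM in the control libraries. Number 3 was the lowest of these Gv sums and the highest of these control sums. The 19 genes of the xylem secondary wall list summed to between 352 and 387 RPKM in the Gv libraries and between 372 and 469 RPKM in the control libraries. They were matched by description alone (laccase, xylan synthase, irregular xylem or fasciclin-like). A large part was 1 gene, Cs2g19350, described as fasciclin-like arabinogalactan protein 19. It had 184, 181 and 187 RPKM in Gv libraries 1, 2 and 3 and 232, 203 and 222 RPKM in control libraries 1, 2 and 3. Neither list had a gene called by group, with or without the block, or by replicate number, and no gene of either list had 0 reads in all libraries of a group. The 18 genes of photosynthetic tissue summed to between 21.8 and 42.4 RPKM in the Gv libraries and between 27.7 and 56.4 RPKM in the control libraries, which is low beside the root aquaporins. The part of cell composition in the difference by number was not tested.

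No gene of the lists that act beside aquaporins in transport across the root was called. Casparian strip proteins help to seal the endodermis, so that water and solutes must pass through its cells. Of the 14 genes of this list 6 passed the filter, 0 were called by group with or without the block, and their median log2 fold change was 0.25. The highest of them, Cs9g04890, described as CASP-like, had 31.1, 26.5 and 36.9 RPKM in Gv libraries 1, 2 and 3 and 31.1, 22.8 and 32.3 RPKM in control libraries 1, 2 and 3. The 3 genes described as casparian, taken as endodermis markers, were all below the filter and summed to between 2.36 and 4.75 RPKM in the Gv libraries and between 3.77 and 9.72 RPKM in the control libraries. The 3 genes for boron and silicon transport all passed the filter, 0 were called, and their median log2 fold change was -0.06. Cs3g20790, described as a boron transporter, belongs to this list although its KEGG class is NIP, and it averaged 43.8 RPKM over the 6 libraries. The list is therefore not separate from the KEGG aquaporin classes. The highest, Cs5g05540, described as a boron transporter, had 64.0, 79.3 and 41.2 RPKM in the Gv libraries and 80.7, 87.1 and 36.1 RPKM in the control libraries. In Arabidopsis a boron exporter of this family acts with a NIP in boron uptake by the root. The groups overlapped for Cs5g05540, which was lowest in number 3 in both groups, while Cs3g20790 was highest there. The median log2 change of number 3 over number 1 in the boron and silicon list was -0.58, and 0 of its genes were called by replicate number.

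The order of levels depended in part on the gene lengths. The deposited length includes bases that had no read. Cs7g31420, for example, had reads over 43.4% to 47.2% of its length in the Gv libraries and over 41.2% to 48.2% in the control libraries, although 1337 to 4423 reads were counted on it in Gv libraries and 1299 to 3969 in control libraries. Counted per covered kilobase, an alternative chosen after the data were seen, Cs8g16640 and orange1.1t03005 remained ranks 1 and 2 of the members, Cs7g31420 moved to rank 3 instead of 5, and Cs5g03460 to rank 6 instead of 10. Cs3g18230 held rank 12 by both measures. Comparisons of 1 gene between groups are not affected by its length.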

How the data were processed

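RNA-seq libraries of 3 Gv and 3 control samples of P. trifoliata lateral roots were used. After a quality filter the authors placed the reads on the genome of Citrus sinensis by SOAPaligner/SOAP2. The deposited count of a gene is its number of uniquely aligned reads and is not normalized. RPKM values were deposited beside it, and recomputing it from count, length and library total gave the same values to a relative deviation of 5.1e-15. The coverage, as a percent of the gene's length, was deposited too. The version of the gene annotation is not given in the sources used here, and how strand and overlapping genes were handled is also not given. A gene not listed in a library was taken as 0 reads. The 6 tables were joined by gene identifier, and gene names were taken from the deposited best match. No genome, protein or promoter sequence was used here.

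Gv was compared with control by the quasi-likelihood test of edgeR 4.0.16 (R 4.3.3, TMM factors, edgeR's filter on low counts), with the group as the only term, over 16281 genes. Called means a Benjamini-Hochberg adjusted p below 0.05 together with a log2 fold change of 1 or more in either direction. The study used NOISeq, which was not at hand and was re-implemented in Python 3.11.15 as an alternative, with 0.5 in place of a count of 0 and a probability limit of 0.8. Other alternatives were DESeq2 1.42.0, limma 3.58.1 on the log2 of RPKM plus 0.5 or plus 0.1, library totals, upper-quartile factors, other filters, each library left out and the replicate number as a block. Scripts were tested on simulated data with known changes.

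The deviations of same-numbered libraries from their group means correlated with r values of 0.357, 0.481 and 0.613 for numbers 1, 2 and 3. Gv replicate 1 correlated more with control replicate 2, at 0.429, than with control replicate 1, and Gv replicate 2 gave 0.272 with control replicate 1. The check thus separates number 3 only, and the pairing of numbers 1 and 2 in the block is taken from the labels. The block lowered the common coefficient of variation to 16.7%, against 29.9% without it.

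The members and gene lists were chosen with earlier results of these data known. Members were named by level within the subfamily (at most 5 each), by a call in any edgeR or DESeq2 setting, by the 6 smallest p values, the 3 largest and 3 smallest fold changes and the 3 smallest p values for the replicate number. Other members are named to account for all 25. Summed RPKM was described without a test.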

Additional observations from a re-analysis of the deposited data

How the results depend on the processing

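The main limits are the 3 libraries per group, the spread between replicate numbers and the low counts of the small members. Without the block 0 members were called, and 1 member was called with the replicate block, with the block and any 1 library left out (range 0 to 1 over all fits that left out a library), by DESeq2 and by the NOISeq criterion. The blocked fits without 1 library are not separate checks, since the partner of that library then no longer entered the comparison. Library totals, upper-quartile factors, testing without a filter, a minimum mean count of 10, dropping the fold limit and limma at both pseudocounts kept the count at 0. The block changed no other call of a member. The number of members called by replicate number ranged between 0 and 10 when 1 library was left out, beside 7 with all libraries. The share over all genes in those refits is not given here. The log2 ratio of the NIP sum was 3.16 as reported and -0.30 without Cs3g18230, 1.14 with KEGG classes in place of descriptions (which add 3 genes, among them Cs3g20790, described as a boron transporter, with 29.1, 36.4 and 64.8 RPKM in Gv libraries 1, 2 and 3 and 36.7, 24.8 and 70.6 RPKM in control libraries 1, 2 and 3), 1.74 for numbers 1 and 2 alone, and between 1.75 and 3.56 with 1 library left out. The KEGG class also moved the SIP ratio to -0.25, since it adds 2 genes. PIP and TIP ratios moved by less than the spread between libraries under each alternative run, although leaving out control replicate 3 turned the PIP ratio to -0.07 and the TIP ratio to -0.17. For numbers 1 and 2 alone, the PIP ratio was 0.292 and the TIP ratio was 0.016.

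Over 340 refits of the log2 fold changes of 17 named members, 288 kept the direction and the side of the threshold, 8 passed the threshold in addition (all for Cs3g18230) and 44 reversed the direction of a value that was not called. Of these 8, 6 were the blocked fits without 1 library, which are not separate checks. With all libraries, Cs5g03460 became 0.051 with the replicate block, 0.0063 with library totals and 0.064 in limma at either pseudocount, Cs5g08710 became 0.00060 with the replicate block and 0.014 in limma at either pseudocount, and orange1.1t03005 became -0.0023 with upper-quartile factors. With 1 library left out, with or without the block, the log2 fold change ranged between -0.32 and 0.52 for Cs1g15440, -0.23 and 0.017 for Cs4g19580, -0.26 and 0.29 for Cs5g03460, -0.62 and 0.36 for Cs5g08710, -0.59 and 0.24 for Cs6g21290, -0.031 and 0.61 for Cs7g25610, -0.0093 and 0.85 for Cs7g31410, -0.082 and 0.65 for Cs7g31420, -0.14 and 0.70 for Cs8g16640, and -0.083 and 0.11 for orange1.1t03005. The reversals of Cs7g25610, Cs7g31410 and Cs8g16640 came without control replicate 3, in the fit without the block, which keeps number 3 in the Gv group only. Cs7g31420 reversed in that fit too, to -0.082, and also without Gv replicate 1, to -0.0011. The cause of the reversals was not tested.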

Other observations

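The deposited KEGG aquaporin classes held 33 genes, of which 8 had a best-match description without the words of the rule. These were 4 PIPs, 2 SIPs and 2 NIPs by KEGG class, and those given here by identifier were chosen after their values were seen. Cs8g02530 and Cs6g07970 were abundant PIPs and resembled the PIP members in being lowest in number 3. Cs8g02530 had 185, 141 and 93.8 RPKM in Gv libraries 1, 2 and 3 and 204, 141 and 61.8 RPKM in control libraries 1, 2 and 3. Cs6g07970 had 131, 73.6 and 67.5 RPKM in the Gv libraries and 107, 81.7 and 50.8 RPKM in the control libraries.

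Cs8g08810, in the KEGG class PIP and described as a hypothetical protein, had 28, 24 and 80 reads in Gv libraries 1, 2 and 3 against 0, 3 and 1 reads in control libraries 1, 2 and 3. Its Gv libraries thus lay above its control libraries, with the highest value in Gv replicate 3. Its log2 fold change was 4.96 ± 0.89 with an edgeR adjusted p of 0.360 without the block, 4.91 ± 0.68 with an edgeR adjusted p of 0.0518 with the block, and 5.09 ± 1.00 with a DESeq2 adjusted p of 5.1e-05. DESeq2 thus called it, and so did the NOISeq criterion, with a probability of 0.898. The study designed quantitative RT-PCR primers for this gene too. The member with the next identifier, the PIP Cs8g08820, had a single read, in Gv replicate 1.

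Cs3g01900, in the KEGG class SIP and described as a hypothetical protein, was highest in number 3, with 5.55, 8.49 and 17.7 RPKM in the Gv libraries and 10.8, 13.8 and 27.9 RPKM in the control libraries. Its Gv library was lower than the control library in each number, with a log2 fold change of -0.77 ± 0.14 and an edgeR adjusted p of 0.121 with the block, so it was not called.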
